A study of Homo sapiens with 30 samples.

Results

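The ZNF genes are the human genes named for their zinc fingers and a number, and 509 protein-coding ones have a row in the deposited HT29 table of 60675 Ensembl IDs. The 200 described here were selected on their mean level alone, as those whose mean over the 30 labelled libraries was 10 or more on the counts-per-million (CPM) scale, taken over each library's column total. That mean level is therefore a description and not a finding. No comparison between groups entered the limit of 10 CPM, but the class of genes was chosen with earlier results of these data known. The 309 ZNF genes under 10 CPM were left out, and 35 of them had no count in any library. Just inside the limit were ZNF334 at 10.0 CPM, ZNF891 at 10.7 CPM and ZNF197 at 10.7 CPM, and just outside it were ZNF16 at 9.93 CPM, ZNF584 at 9.65 CPM and ZNF695 at 9.48 CPM. All 200 passed the filter on low counts, as did 215 of the 309 others.

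HT29 is an established human colorectal adenocarcinoma line with epithelial features. The cells were exposed for 24 h to ethanol extracts of the herbal prescriptions Banhasasim-tang, Bojungikgi-tang, Sayeok-tang or Yijung-tang, each at 20, 100 and 500 µg/mL, or to the vehicle, dimethyl sulfoxide (DMSO), and mRNA libraries made from total RNA were sequenced in 100 bp read pairs. Each dose of Bojungikgi and of Sayeok had 3 libraries, each dose of Banhasasim 2, each dose of Yijung 1, and the vehicle 3. The sample labels give 0.1% DMSO for the vehicle, whereas the design text of the series gives 2%. The labels do not say that replicates were separate cultures, so every p below reflects how far these libraries spread and may be technical.

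Most ZNF proteins carry tandem C2H2 zinc fingers, each of which holds a zinc ion and contacts a few bases of DNA. The largest class joins its fingers to a KRAB domain, which recruits the corepressor TRIM28 and, through it, the histone methyltransferase SETDB1 and heterochromatin proteins to silence transposable elements. Other ZNF proteins work elsewhere, on spindles, RNA or ribosomes, and many KRAB genes lie in clusters on chromosome 19 that arose by duplication.

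The libraries held 36264981 (Sayeok 500 replicate 3) to 71606865 (Vehicle replicate 2) counts on the genes tested. The colon epithelial markers EPCAM, KRT8, KRT18, KRT20 and VIL1 were all present, CDX2 and CDH17 were low at 4.71 to 7.15 and 3.91 to 6.37 CPM, and none of 5 markers of fibroblasts and endothelium passed 2.25 CPM in any library. Of 4 leukocyte markers, CD68 reached 8.05 CPM and PTPRC 0.0732 CPM. Vehicle replicate 1 and Bojungikgi 500 replicate 2 stood at opposite ends of the set. Cytosolic ribosomal protein genes took 3.78% of the counts in Bojungikgi 500 replicate 2 and 6.91% in Vehicle replicate 1, against 4.59 to 5.89% in the other libraries. The 2 Banhasasim libraries at 500 µg/mL held 12.9% and 9.41% of their counts on the 2 mitochondrial ribosomal RNAs, where no other library passed 1.91%. In bulk RNA, fewer cells expressing a gene and less of its RNA per cell cannot be told apart.

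The 200 genes took 0.627 to 0.816% of the counts of a library. ZNF207, a spindle assembly factor also known as BuGZ, was the most abundant by counts at a mean of 424 CPM, followed by ZNF664 at 369, ZNF106 at 194, ZNF146 at 191, ZNF587 at 155, ZNF609 at 152, ZNF592 at 130 and ZNF770 at 129 CPM. These values rank counts and are not per length, so they are no order of transcript number. The median member had 24.3 CPM. Of the 200, 68 (34.0%) lay on chromosome 19, 19 on chromosome 7 and 16 on chromosome 16. Their longest transcripts had a median GC content of 44.5% against 48.5% over all genes tested, and a median length of 4634 bases against 2903. By this measure 135 members had under 50% GC, called AT-rich below, and 65 had 50% or more, called GC-rich. Across the group means of the replicated groups, a member's highest and lowest level differed by a median of 0.23 on the log2 scale, and no member spanned more than 1. Only 4 of the 200 spanned more than 0.5, namely ZNF488 (0.68), ZNF704 (0.64), ZNF417 (0.59) and ZNF581 (0.52), while ZNF3 was the steadiest at 0.07.

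Of the members, 177 matched an entry in the RefSeq table of promoters, which gives 300 bases around each annotated start. The median GC content of these windows was 63.0%, against 58.7% over 35116 promoters. Each window was searched on both strands, overlaps counted, for the letters GCGTG, the core of the aryl hydrocarbon receptor element, TGACNNNGC, the core of the antioxidant response element, and TGATGNAA, the core of the amino acid response element. GCGTG was in 57.1% of the members' windows and 36.5% of all, TGACNNNGC in 14.1% and 13.3%, and TGATGNAA in 1.1% and 3.6%. The windows of ZNF581 and ZNF579, which rose between the doses of Banhasasim, and of ZNF84, which fell and whose window held 2 of the 3 runs of letters, are printed as examples. They are given 5′ to 3′ on the gene's strand, in RefSeq GRCh38.p14, with the matches in capitals.
ZNF581, chr19:55643399-55643698, plus strand: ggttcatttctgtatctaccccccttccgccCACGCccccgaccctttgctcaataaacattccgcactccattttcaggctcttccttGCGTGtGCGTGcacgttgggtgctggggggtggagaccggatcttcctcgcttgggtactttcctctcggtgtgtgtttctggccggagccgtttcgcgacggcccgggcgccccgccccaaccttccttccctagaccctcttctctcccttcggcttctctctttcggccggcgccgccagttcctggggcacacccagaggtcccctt
ZNF579, chr19:55580799-55581098, minus strand: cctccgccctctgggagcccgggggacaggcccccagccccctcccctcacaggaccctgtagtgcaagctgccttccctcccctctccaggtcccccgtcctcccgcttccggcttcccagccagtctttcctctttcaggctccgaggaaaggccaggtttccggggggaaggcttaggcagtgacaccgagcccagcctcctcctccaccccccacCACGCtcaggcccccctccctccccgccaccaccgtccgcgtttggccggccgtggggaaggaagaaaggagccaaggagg
ZNF84, chr12:133037259-133037558, plus strand: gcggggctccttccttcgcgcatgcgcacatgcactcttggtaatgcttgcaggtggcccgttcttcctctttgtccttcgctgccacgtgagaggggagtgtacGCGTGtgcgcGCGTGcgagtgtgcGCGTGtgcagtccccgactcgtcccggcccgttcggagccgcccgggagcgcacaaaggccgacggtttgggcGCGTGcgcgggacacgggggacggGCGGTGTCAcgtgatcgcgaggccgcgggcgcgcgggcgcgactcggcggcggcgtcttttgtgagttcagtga
The window of ZNF581 was 62.3% GC with 3 matches to GCGTG, and that of ZNF579 69.7% GC with 1. The window of ZNF84 was 69.3% GC and held 4 matches to GCGTG and 1 to TGACNNNGC, on either strand. A match is only a run of letters and is no measure of binding.

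The doses of one extract were compared first, since these comparisons do not use the vehicle libraries. Levels and changes below, except the CPM of the Yijung libraries, which are on column totals, are on counts scaled by edgeR's trimmed mean of M-values and are called normalised CPM, and a gene was called changed at an adjusted p under 0.05 (edgeR quasi-likelihood test, Benjamini-Hochberg over 18783 genes). Between 500 and 20 µg/mL of Banhasasim, 7 of the 200 rose and 10 fell, against 3.82% higher and 4.0% lower of all genes tested. Between 500 and 20 µg/mL of Bojungikgi 1 rose and 1 fell, against 0.602% and 1.16% of all genes, and between 500 and 20 µg/mL of Sayeok 1 rose and 1 fell, against 1.14% and 2.03%. The members' median log2 change was -0.025 for Banhasasim, 0.036 for Bojungikgi and 0.002 for Sayeok, beside 0.005, 0.001 and 0.004 over all genes. Among genes that, like the members, had a mean of 10 CPM or more, 5.42% were higher and 5.03% lower with Banhasasim, 0.971% and 1.39% with Bojungikgi, and 1.73% and 2.29% with Sayeok. The members' shares are near this background. Column totals alone gave 0 higher and 1 lower with Bojungikgi and with Sayeok. In all, 19 members were called in at least 1 of the 3 extracts, and ZNF704 alone was called in more than 1.

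ZNF704 lies on chr8:80628451-80874781 (minus strand) and encodes a transcription factor related to ZNF395. With Banhasasim it had 9.57 and 11.8 normalised CPM at 500 µg/mL, against 15.9 and 16.7 at 20 µg/mL. With Sayeok it had 11.4, 10.7 and 11.1 at 500 µg/mL, against 16.6, 15.6 and 17.8 at 20 µg/mL. With Bojungikgi it had 12.5, 14.4 and 11.8 at 500 µg/mL, against 15.3, 16.0 and 17.2 at 20 µg/mL. In each extract every library at 500 µg/mL was below every library at 20 µg/mL. At 100 µg/mL the 8 libraries of these extracts had 15.0 to 16.5, against 15.3 to 17.8 at 20 µg/mL, and these ranges overlapped. The change from 20 to 500 µg/mL was -0.61 ± 0.10 (log2, SE) with Banhasasim, -0.59 ± 0.08 with Sayeok and -0.33 ± 0.08 with Bojungikgi, with adjusted p of 0.000139, 4.02e-05 and 0.0232 (edgeR quasi-likelihood test). The Banhasasim and Sayeok calls held without each library in turn. The Bojungikgi call did not hold without Bojungikgi 20 replicate 2 or 3 or Bojungikgi 500 replicate 1 or 3, with an adjusted p of up to 0.153, or when only the groups compared were fitted (adjusted p = 0.177, edgeR). The smaller fall with Bojungikgi was not shown to differ from the others, since the difference of the changes was -0.28 ± 0.13 for Banhasasim minus Bojungikgi (adjusted p = 0.293) and 0.26 ± 0.11 for Bojungikgi minus Sayeok (adjusted p = 0.882, edgeR).

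ZNF704 stood lower in the vehicle libraries, at 12.2, 14.6 and 14.3 normalised CPM, than at the 2 lower doses. At 500 µg/mL it was below the vehicle with Banhasasim (-0.37 ± 0.09, adjusted p = 0.0072) and with Sayeok (-0.32 ± 0.08, adjusted p = 0.0093), whereas with Bojungikgi the value was -0.10 (adjusted p = 0.393, edgeR quasi-likelihood test). The Banhasasim call was lost without Banhasasim 500 replicate 2 (adjusted p = 0.216) and with only the groups compared (adjusted p = 0.16), and the Sayeok call without Vehicle replicate 2 (adjusted p = 0.0545). The mean of the 3 extracts at 20 µg/mL was 0.25 above the vehicle (adjusted p = 0.00627) with all libraries, 0.18 (adjusted p = 0.0978) without Vehicle replicate 1, and 0.04 (adjusted p = 0.565, edgeR) with a correction for GC content and length.

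ZNF488, at chr10:47365496-47384273 (minus strand), encodes a transcriptional regulator studied with OLIG2 in oligodendrocytes. It had 16.5 and 16.7 normalised CPM with Banhasasim at 500 µg/mL, against 24.0 and 24.4 at 20 µg/mL. The other replicated extracts at 500 µg/mL had 24.1 to 27.1, and the vehicle had 24.5, 24.4 and 24.0. No library outside Banhasasim at 500 µg/mL was under 22.5 normalised CPM. The change from 20 to 500 µg/mL of Banhasasim was -0.55 ± 0.06 (adjusted p = 4.23e-07), and the same size was measured against the vehicle (-0.55 ± 0.06, adjusted p = 5.43e-08, edgeR quasi-likelihood test). At 500 µg/mL, the log2 ratio of Banhasasim to Sayeok was -0.61 ± 0.06 (adjusted p = 2.02e-08) and that of Banhasasim to Bojungikgi -0.68 ± 0.06 (adjusted p = 1.89e-09, edgeR). The dose change itself differed from that of Sayeok by -0.59 ± 0.08 (adjusted p = 2.12e-05) and from that of Bojungikgi by -0.69 ± 0.08 (adjusted p = 1.51e-06, edgeR interaction contrast). Each of these calls held without any single library, with a largest adjusted p of 0.000484 (edgeR).

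**Figure D1:**
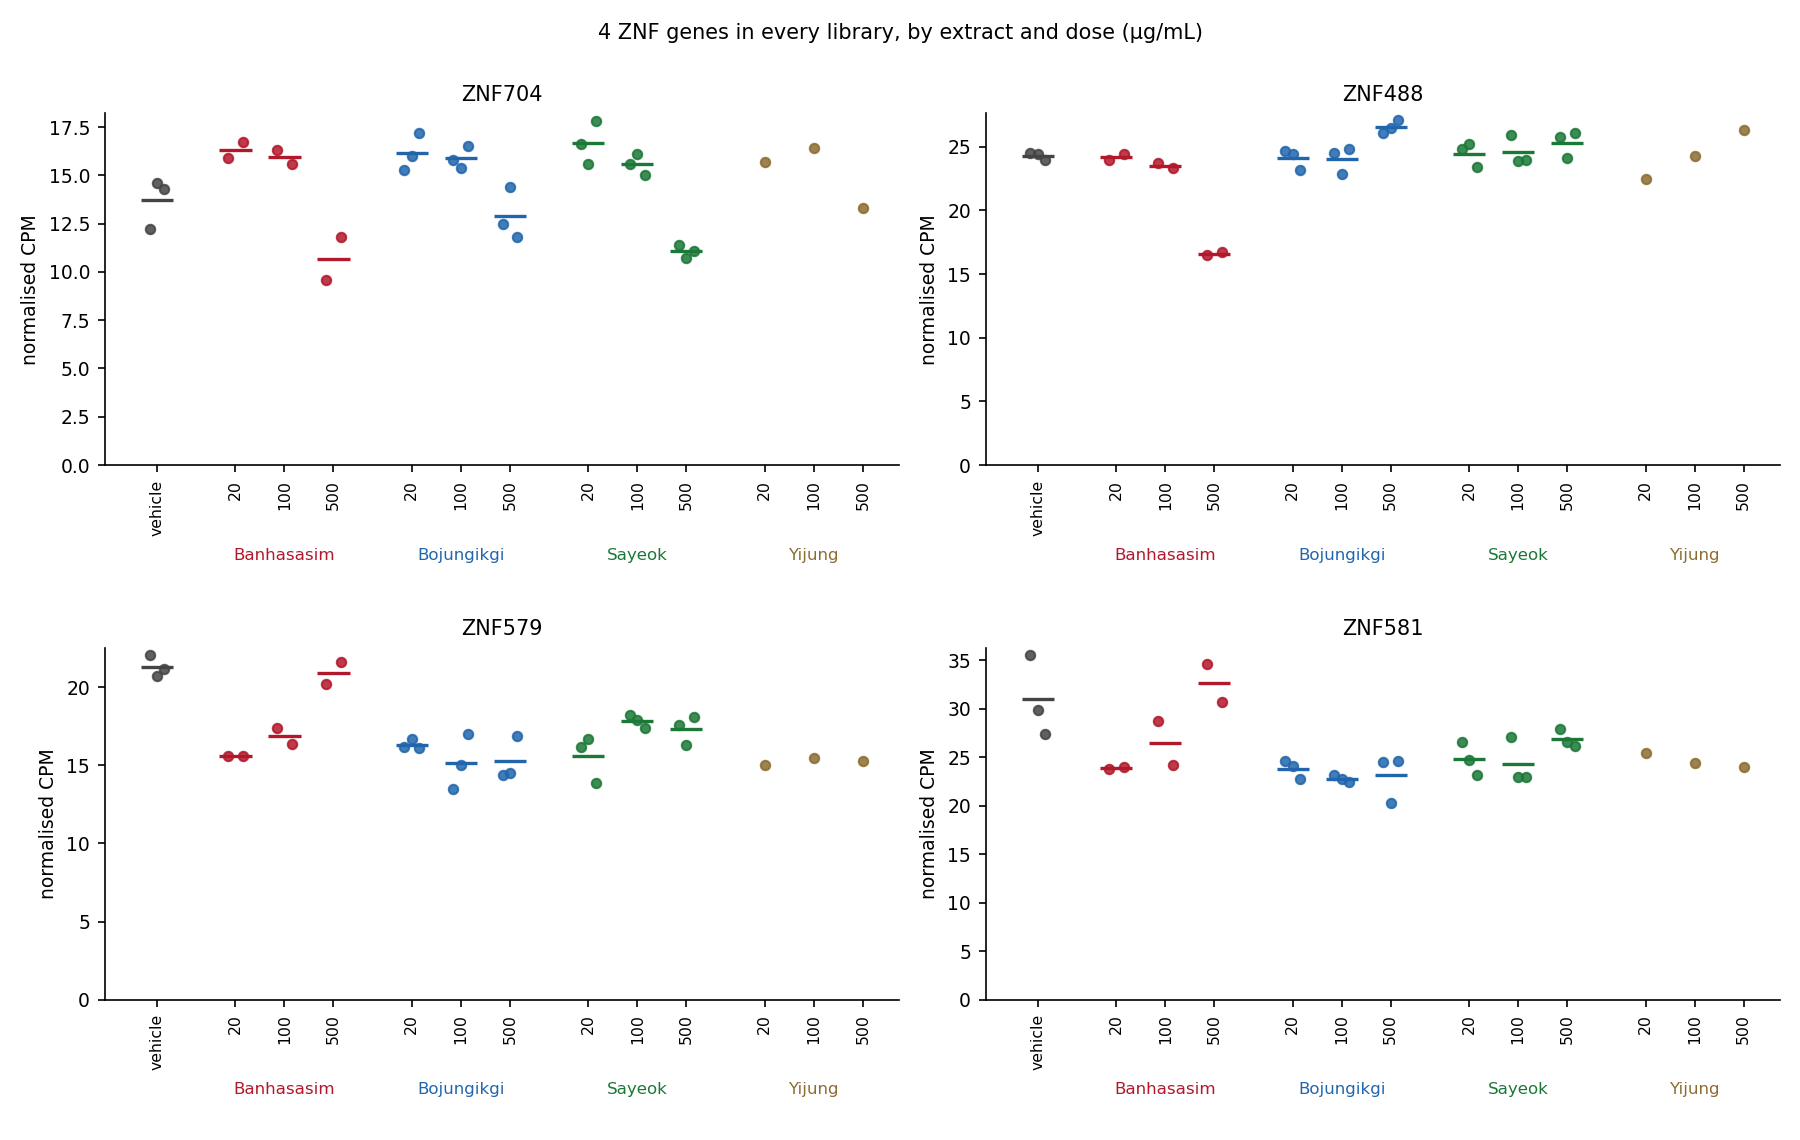
Normalised CPM (vertical axis) of ZNF704, ZNF488, ZNF579 and ZNF581 in each library (points) by extract and dose in µg/mL, with the vehicle at the left and group means as horizontal lines where a group had more than 1 library. ZNF704 sits at 9.57 to 14.4 in the 8 replicated libraries at 500 µg/mL, and ZNF488 drops to 16.5 and 16.7 in the Banhasasim libraries at 500 µg/mL.

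Among the 7 members that rose with Banhasasim, ZNF581 and ZNF579 on chromosome 19 had the largest changes. ZNF579, whose transcript is 65.9% GC, had 20.2 and 21.6 normalised CPM at 500 µg/mL, against 15.6 and 15.6 at 20 µg/mL, a change of 0.42 ± 0.09 (adjusted p = 0.00322, edgeR quasi-likelihood test) that held without each library in turn. The vehicle had 22.1, 20.7 and 21.2, so that the libraries at 500 µg/mL of Banhasasim lay within or near the vehicle range and those at 20 µg/mL below it. With Bojungikgi ZNF579 had 14.4, 14.5 and 16.9 at 500 µg/mL, against 16.2, 16.7 and 16.1 at 20 µg/mL. The difference between these dose changes was 0.52 ± 0.12 (adjusted p = 0.0161, edgeR), and it was not called without Banhasasim 20 replicate 2 or 3 or Banhasasim 500 replicate 3, with an adjusted p of up to 0.0808, or with only the groups compared (adjusted p = 0.0526). ZNF581 had 34.6 and 30.7 at 500 µg/mL, against 23.8 and 24.0 at 20 µg/mL (0.45 ± 0.11, adjusted p = 0.00912, edgeR). The vehicle libraries of ZNF581 ran over 35.5, 29.9 and 27.4, and the call was lost without Banhasasim 500 replicate 2, Banhasasim 20 replicate 2 or Banhasasim 20 replicate 3, with an adjusted p of up to 0.17. ZNF581 shares 12.7% of its 100-base stretches with its neighbour ZNF580, with which it overlaps in exons on the same strand, so its counts are uncertain.

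The other 5 that rose included ZNF473 (0.29), a component of the machinery that cuts histone transcripts, ZNF239 (0.27), known as MOK2, and ZNF639 (0.22), known as ZASC1. ZNF473 had 33.8 and 35.4 normalised CPM at 500 µg/mL of Banhasasim, against 27.4 and 29.3 at 20 µg/mL, and its call was lost without Banhasasim 20 replicate 2 or Banhasasim 500 replicate 3 (adjusted p up to 0.127). ZNF277, a partner of the ribosomal protein RPS2, had 18.2 and 20.0 normalised CPM at 500 µg/mL of Banhasasim, against 15.9 and 16.6 at 20 µg/mL (0.23 ± 0.07, adjusted p = 0.0415, edgeR quasi-likelihood test). That call was lost without each of the 4 libraries in turn, with an adjusted p of up to 0.289. With Bojungikgi ZNF277 had 15.5, 14.3 and 14.9 at 500 µg/mL, against 17.1, 17.2 and 17.2 at 20 µg/mL, and the 2 dose changes differed by 0.44 ± 0.09 (adjusted p = 0.00786, edgeR), a call lost without Banhasasim 20 replicate 2 or Banhasasim 500 replicate 3 (adjusted p up to 0.0677) and with only the groups compared (adjusted p = 0.056). ZNF277 shares 10.9% of its 100-base stretches with a small RNA gene of the 7SK family, so its counts are uncertain. ZNF48 (0.32) completes the group.

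Beside ZNF704 and ZNF488, 8 members fell with Banhasasim. ZNF84 had 12.4 and 11.9 normalised CPM at 500 µg/mL, against 14.8 and 15.3 at 20 µg/mL (-0.31 ± 0.09, adjusted p = 0.0234, edgeR quasi-likelihood test). ZNF552 had 35.7 and 33.2 at 500 µg/mL, against 40.4 and 42.6 at 20 µg/mL (-0.27 ± 0.06, adjusted p = 0.00272, edgeR). The remaining 6 were ZNF518A (-0.29), ZNF600 (-0.27), ZNF587 (-0.26), ZNF432 (-0.26), ZNF440 (-0.23) and ZNF263 (-0.19). ZNF587, a KRAB gene known for binding endogenous retroviruses of the HERV-K family, shares 12.4% of its 100-base stretches with other genes, mainly ZNF417. For all 17 called members the libraries of both doses did not overlap. With 2 libraries per dose and members picked by their call, this adds little to the calls. Only 3 of the 17, ZNF704, ZNF488 and ZNF579, were called without each of the 4 libraries in turn. Leaving out Banhasasim 500 replicate 2 gave 6 calls and leaving out Banhasasim 500 replicate 3 gave 15. Leaving out either library at 20 µg/mL gave 5 calls. For these counts without single libraries the share of all genes is not given, so they do not show whether members moved more than other genes. With only the groups compared, 8 were called, namely ZNF473, ZNF48, ZNF488, ZNF552, ZNF579, ZNF581, ZNF704 and ZNF84, against 3.06% higher and 2.92% lower of all genes. The ZNF84 call was lost without any 1 of them, with an adjusted p of up to 0.171, and the ZNF552 call without Banhasasim 500 replicate 3 or Banhasasim 20 replicate 3, with an adjusted p of up to 0.0705 (edgeR). Under scaling by column totals alone, which moved the median change of all genes by -0.13, 2 members were higher and 53 lower. The median was then -0.16 over the members and -0.13 over all genes. The share of all genes called under that scaling is not given, so these 2 counts do not show whether members moved more than other genes. The part of the mitochondrial ribosomal RNA share in these changes was not tested.

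With Bojungikgi, ZNF436 had 19.1, 23.1 and 20.8 normalised CPM at 500 µg/mL, against 17.0, 18.1 and 17.1 at 20 µg/mL. The highest value was that of Bojungikgi 500 replicate 2, and the groups did not overlap. The change was 0.27 ± 0.06 (adjusted p = 0.0201, edgeR quasi-likelihood test) and was lost in 5 of the 6 fits that left out a library (all but the one without Bojungikgi 500 replicate 1), with an adjusted p of up to 0.163, and with only the groups compared (adjusted p = 0.248). With Sayeok, ZNF778 had 11.7, 12.3 and 12.3 at 500 µg/mL, against 10.0, 10.6 and 9.96 at 20 µg/mL, again without overlap. That change was 0.25 ± 0.06 (adjusted p = 0.00965, edgeR) and was lost without Sayeok 20 replicate 1, Sayeok 500 replicate 2 or Sayeok 500 replicate 3 (adjusted p up to 0.0645), and with only the groups compared (adjusted p = 0.055).

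**Figure D2:**
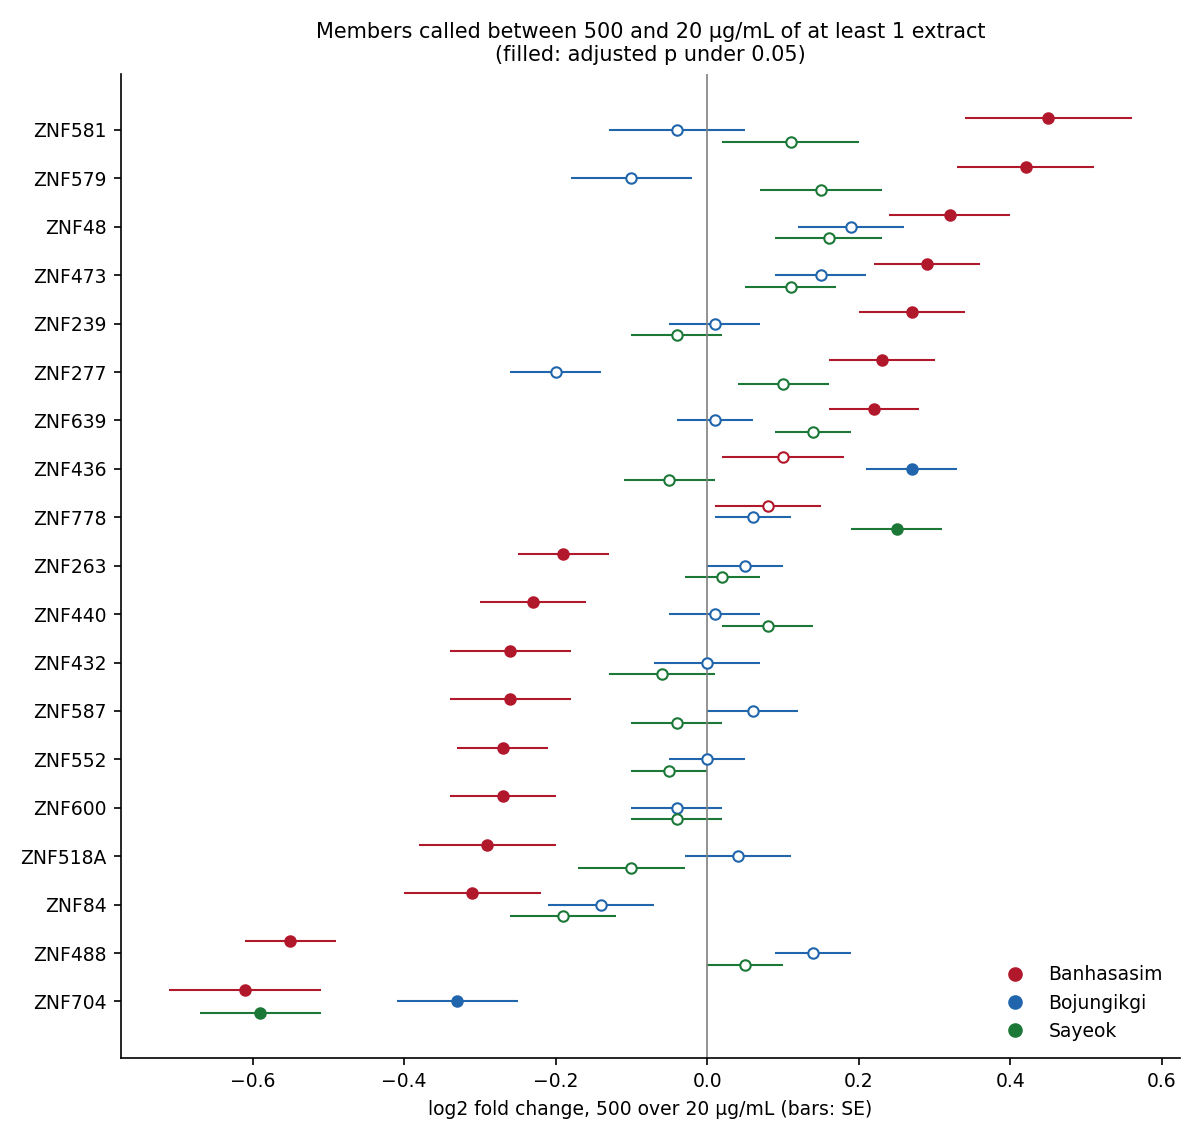
Log2 fold change of 500 over 20 µg/mL (horizontal axis, bars show the SE) for the 19 members called in at least 1 extract, with filled points where the adjusted p was under 0.05. ZNF704 is filled in all 3 extracts, and ZNF488 lies at -0.55 with Banhasasim and on the other side of 0 with Bojungikgi and Sayeok.

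Between 100 and 20 µg/mL no member was called in any extract by the edgeR quasi-likelihood test or by DESeq2, where 0.0799% of all genes were called higher and 0.00532% lower with Banhasasim, 0.0% and 0.0106% with Bojungikgi, and 0.0% and 0.0% with Sayeok. At an unadjusted p under 0.05 there were 1, 2 and 13 members. The smallest p in each extract was that of ZNF268 with Banhasasim (-0.18), ZNF672 with Bojungikgi (0.15) and ZNF598, a ubiquitin ligase of stalled ribosomes, with Sayeok (0.22), all with an adjusted p of 0.94 or more.

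The extracts were then compared at 500 µg/mL. Banhasasim was higher than Sayeok for 4 members and lower for 4, against 2.72% and 1.6% of all genes tested, and 3.55% and 2.2% of those with a mean of 10 CPM or more (edgeR quasi-likelihood test). The higher members were ZNF703 (0.28), ZNF239 (0.26), ZNF777 (0.26) and ZNF74 (0.21), and the lower ones were ZNF488 (-0.61), ZNF841 (-0.35), ZNF440 (-0.30) and ZNF600 (-0.25). ZNF703, a corepressor amplified in luminal breast tumours, had 75.8 and 78.9 normalised CPM with Banhasasim, against 66.6, 61.7 and 63.4 with Sayeok. Banhasasim was higher than Bojungikgi for 8 members and lower for 24, against 6.29% and 5.9% of all genes, and 8.14% and 8.94% of those with a mean of 10 CPM or more. The largest differences were ZNF581 (0.49), ZNF579 (0.45) and ZNF277 (0.36) among the higher members and ZNF488 (-0.68), ZNF678 (-0.44) and ZNF417 (-0.42) among the lower ones. Only ZNF488 of the 8 members called against Sayeok, and 3 of the 32 called against Bojungikgi, ZNF488, ZNF579 and ZNF277, were called without each library in turn. Without Banhasasim 500 replicate 2, 2 members were called against Sayeok and 4 against Bojungikgi. Without Sayeok 500 replicate 2 or 3 there were 4 calls against Sayeok each. The share of all genes is not given for these counts. Without Bojungikgi 500 replicate 2 there were 18 against Bojungikgi, 8 higher and 10 lower, where 3.91% and 2.32% of all genes were. With only the groups compared, 5 members were called against Sayeok, with ZNF488, ZNF841, ZNF440 and ZNF703 among them, and ZNF488 alone against Bojungikgi, where 0.634% of all genes were higher and 0.141% lower. Column totals alone gave 0 higher and 35 lower against Sayeok and 3 higher and 82 lower against Bojungikgi, with the median of all genes moved by -0.11 and -0.12. The members' medians were then -0.14 and -0.19, beside -0.11 and -0.12 over all genes. The share of all genes called under that scaling is not given. Between Bojungikgi and Sayeok no member was called by edgeR or by DESeq2, where 0.0799% of all genes were higher and 0.16% lower, and 21 members had an unadjusted p under 0.05. The smallest p was that of ZNF277 (-0.21 ± 0.06, adjusted p = 0.181). These comparisons share libraries with each other and with the dose comparisons.

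In the differences of the dose changes, 0 members were higher and 1, ZNF488, lower for Banhasasim minus Sayeok, against 0.745% and 0.298% of all genes. For Banhasasim minus Bojungikgi 2 were higher, ZNF579 and ZNF277, and 1 lower, ZNF488, against 1.31% and 0.745%. For Bojungikgi minus Sayeok none was called by edgeR or DESeq2, against 0.00532% and 0.0213%, with 7 members at an unadjusted p under 0.05. ZNF488 alone was called in each of the first 2 differences with only the groups compared. Column totals alone gave 0 higher and 3 lower for Banhasasim minus Sayeok and 0 higher and 10 lower for Banhasasim minus Bojungikgi. The share of all genes called under that scaling is not given.

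Against the vehicle far more members were called, and mostly as higher. Bojungikgi at 500 µg/mL had 69 members higher and 15 lower, against 14.3% higher and 15.4% lower of all genes (edgeR quasi-likelihood test). Sayeok at 500 µg/mL had 38 higher and 12 lower, against 8.33% and 8.27%, and Banhasasim at 500 µg/mL 20 higher and 8 lower, against 8.16% and 7.12%. The mean of these 3 extracts had 64 higher and 13 lower at 100 µg/mL, against 12.4% and 13.4%, and 70 higher and 21 lower at 20 µg/mL, against 13.7% and 15.2%. Among genes that, like the members, had a mean of 10 CPM or more, 23.2% were higher and 21.5% lower with Bojungikgi, 13.3% and 11.3% with Sayeok and 11.8% and 9.13% with Banhasasim at 500 µg/mL. The same shares for the mean of the extracts were 19.7% and 20.3% at 100 µg/mL and 21.4% and 23.0% at 20 µg/mL. The members' median change with Bojungikgi at 500 µg/mL was 0.112 on the log2 scale, beside -0.006 over all genes. These counts at 500 µg/mL were far lower when only the groups compared were fitted. Bojungikgi then had 1 member higher, ZNF367, and 1 lower, ZNF579, against 0.542% and 0.584% of all genes, Sayeok had 9 and 5, against 3.62% and 3.97%, and Banhasasim 3 and 1, against 2.28% and 1.54%. The mean of the extracts had 57 higher and 13 lower at 100 µg/mL, against 11.0% and 12.6%, and 65 higher and 24 lower at 20 µg/mL, against 14.0% and 17.8%. The comparisons use the same 3 vehicle libraries, so their counts are not independent of each other.

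The counts with all groups fitted also depended on Vehicle replicate 1. Without it, Bojungikgi at 500 µg/mL had 31 members higher and 9 lower, against 7.09% and 7.94% of all genes, and the members' median was 0.071. Sayeok at 500 µg/mL had 8 higher and 7 lower, against 3.75% and 3.9%, and Banhasasim at 500 µg/mL 12 higher and 9 lower, against 6.23% and 5.5%. The mean of the extracts had 11 higher and 5 lower at 100 µg/mL, against 3.49% and 3.57%, and 22 higher and 9 lower at 20 µg/mL, against 5.41% and 5.55%. Among genes with a mean of 10 CPM or more, the shares without that library were 11.7% higher and 11.4% lower with Bojungikgi, where the members had 15.5% and 4.5%, 5.84% and 5.17% with Sayeok, where the members had 4.0% and 3.5%, and 8.71% and 7.29% with Banhasasim, where the members had 6.0% and 4.5%. They were 5.52% and 5.66% in the mean at 100 µg/mL, where the members had 5.5% and 2.5%, and 8.49% and 9.01% at 20 µg/mL, where the members had 11.0% and 4.5%. The members' share of higher calls was thus below these genes' with Sayeok and Banhasasim, and above it with Bojungikgi and at 20 µg/mL. Of the 84 members called with Bojungikgi at 500 µg/mL, 40 were called in the same direction without that library, as were 15 of 50 with Sayeok, 19 of 28 with Banhasasim, 16 of 77 at 100 µg/mL and 31 of 91 at 20 µg/mL. Vehicle replicate 1 had the lowest value of all 30 libraries for 85 of the 200 members, and Bojungikgi 500 replicate 2 the highest for 84. The same was not counted over all genes, so this is not shown to be particular to the members. Other single libraries also moved the counts. Bojungikgi at 500 µg/mL had 45 calls without Bojungikgi 500 replicate 2, 32 higher and 13 lower, against 8.24% and 8.27% of all genes. Among genes with a mean of 10 CPM or more these shares were 14.1% and 11.9%, where the members had 16.0% and 6.5%. Banhasasim had 10 calls without Banhasasim 500 replicate 3. Sayeok had 17 without Sayeok 500 replicate 2, 32 without Sayeok 500 replicate 3 and 29 without Vehicle replicate 2. For these counts of Banhasasim and Sayeok the share of all genes is not given, so they do not show whether members moved more than other genes. Scaled by column totals alone, Banhasasim at 500 µg/mL had 7 members higher and 22 lower than the vehicle, Sayeok had 41 higher and 6 lower, and the mean of the extracts at 20 µg/mL had 91 higher and 9 lower. The members' medians were then -0.05, 0.10 and 0.12, beside -0.09, 0.02 and 0.05 over all genes. The share of all genes called under that scaling is not given.

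The summed level of the 200 genes showed the same libraries at the ends. It was 6979 to 8047 normalised CPM over the 27 extract libraries, with Bojungikgi 500 replicate 2 at 8047 and the next highest at 7497, against 6670, 7053 and 7194 in Vehicle replicates 1, 2 and 3. The 135 members under 50% GC summed to 4913 to 5922 in the extract libraries, against 4542, 4893 and 5099 in the vehicle libraries. The 65 members of 50% GC or more summed to 1910 to 2150 in the extract libraries, against 2128, 2161 and 2095 in the vehicle libraries. The sums of the AT-rich members thus overlapped between extract and vehicle libraries only through Banhasasim 500 replicate 2 at 4913. Those of the GC-rich members overlapped in part, and the median of the extract libraries, 2050, was below all 3 vehicle libraries.

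**Figure D3:**
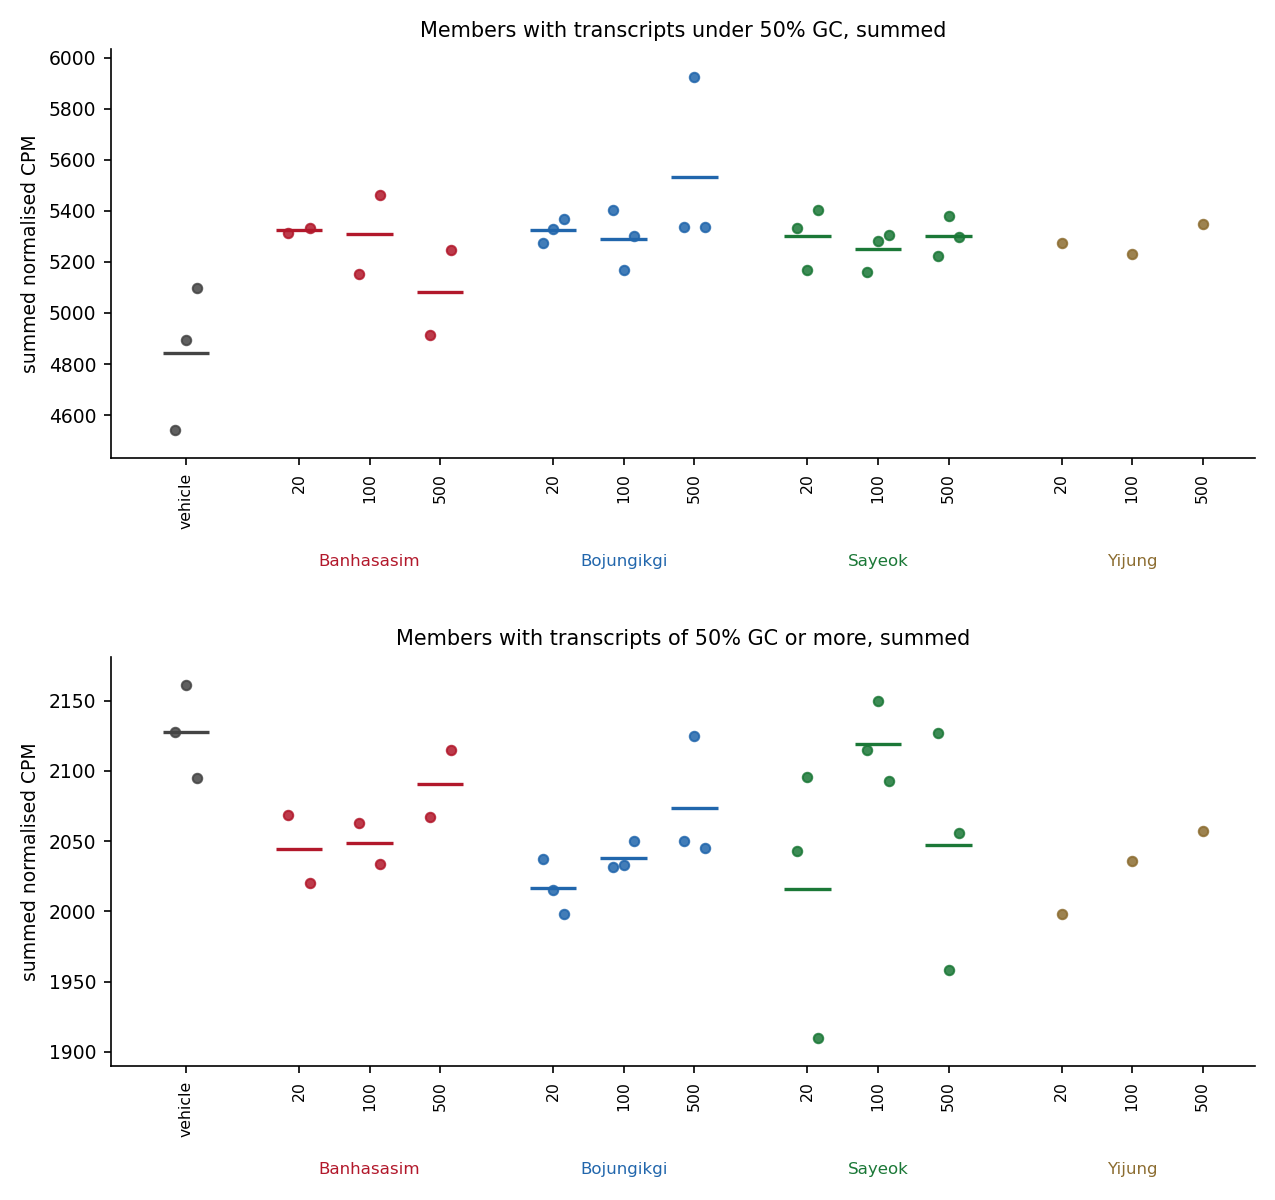
Summed normalised CPM (vertical axis, not starting at 0) of the 135 members under 50% GC and of the 65 members of 50% GC or more in each library (points), by extract and dose in µg/mL with the vehicle at the left, and group means as horizontal lines. Vehicle replicate 1 is lowest at 4542 and Bojungikgi 500 replicate 2 highest at 5922 in the upper panel.

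The direction of the calls against the vehicle went with GC content. With Bojungikgi at 500 µg/mL, 65 of the 135 AT-rich members were higher and 2 lower, whereas 4 of the 65 GC-rich members were higher and 13 lower. All genes tested split the same way, with 21.8% higher and 8.45% lower under 50% GC, and 5.34% higher and 24.0% lower at 50% GC or more. These and the other shares by GC class include genes under 10 CPM, unlike the members, so they are not of like level. Without Vehicle replicate 1, for example, 7.09% of all genes but 11.7% of those with 10 CPM or more were higher with Bojungikgi. With Sayeok at 500 µg/mL, 37 AT-rich members were higher and 2 lower, and 1 GC-rich member was higher and 10 lower, beside 12.8% and 4.22% of all AT-rich and 2.9% and 13.3% of all GC-rich genes. At 20 µg/mL the mean of the extracts had 68 AT-rich members higher and 2 lower, and 2 GC-rich members higher and 19 lower, beside 21.6% and 7.97% of all AT-rich and 4.2% and 24.2% of all GC-rich genes. With Banhasasim at 500 µg/mL, 15 AT-rich members were higher and 4 lower, and 5 GC-rich ones were higher and 4 lower, beside 9.61% and 5.39% of all AT-rich and 6.48% and 9.3% of all GC-rich genes. Without Vehicle replicate 1, Bojungikgi at 500 µg/mL had 31 AT-rich members higher and 1 lower, beside 11.3% and 3.94% of all AT-rich genes. In that fit 0 GC-rich members were higher and 8 (12.3%) lower, beside 2.13% and 13.0% of all GC-rich genes. After a correction of each library for GC content and transcript length, chosen after the data were seen, Bojungikgi at 500 µg/mL had 27 members higher and 15 lower, against 10.6% and 11.1% of all genes, Sayeok had 22 higher and 10 lower, against 7.57% and 7.32%, and the mean at 20 µg/mL had 23 higher and 22 lower, against 9.48% and 11.1%. Genes with a mean of 10 CPM or more had 15.3% higher and 16.9% lower with Bojungikgi, 11.4% and 10.4% with Sayeok and 12.9% and 18.4% at 20 µg/mL after that correction, so the members' shares of higher calls, 13.5%, 11.0% and 11.5%, were below theirs. The mean GC content of the libraries, weighted by counts, was 48.08 to 48.68% in the extract libraries, against 48.96, 48.87 and 48.61% in Vehicle replicates 1, 2 and 3. The part of GC content and of the ribosomal protein share in these differences was not tested further.

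**Figure D4:**
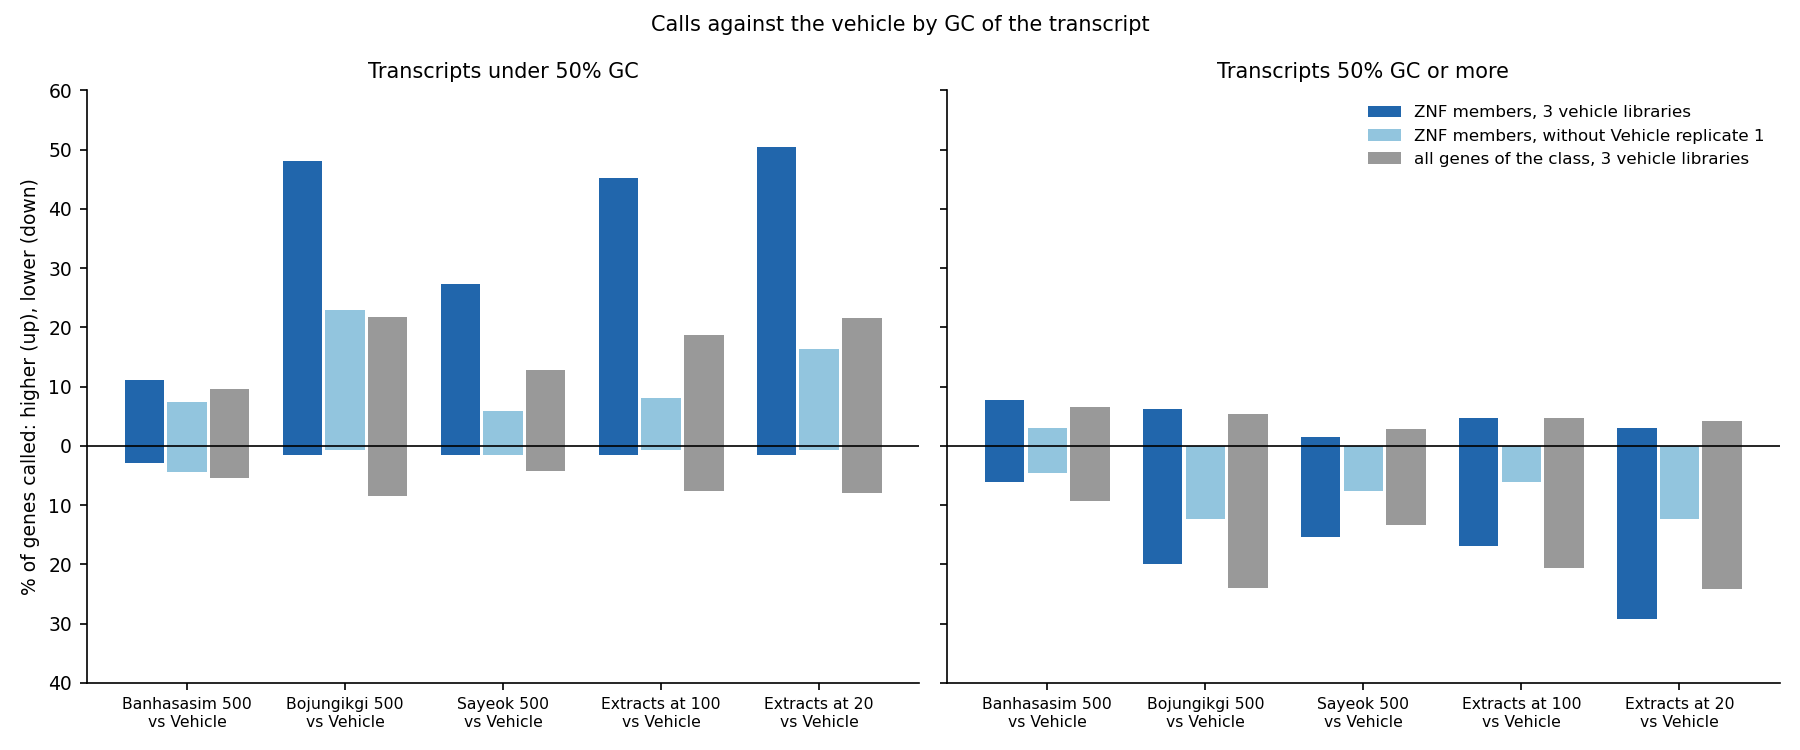
Share of genes called higher (above 0) and lower (below 0) against the vehicle, in percent, in 5 comparisons, for members with transcripts under 50% GC (left) and of 50% GC or more (right). Dark bars use all 3 vehicle libraries and light bars leave out Vehicle replicate 1. Grey bars show all genes of the GC class with all 3 vehicle libraries, so they are the background of the dark bars only. Shares of all genes include those with a mean under 10 CPM, unlike the members. With Bojungikgi at 500 µg/mL 48.1% of the AT-rich members are higher with all libraries. Without Vehicle replicate 1 23.0% are, beside 11.3% of all AT-rich genes in that fit, which is not drawn.

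**Figure D5:**
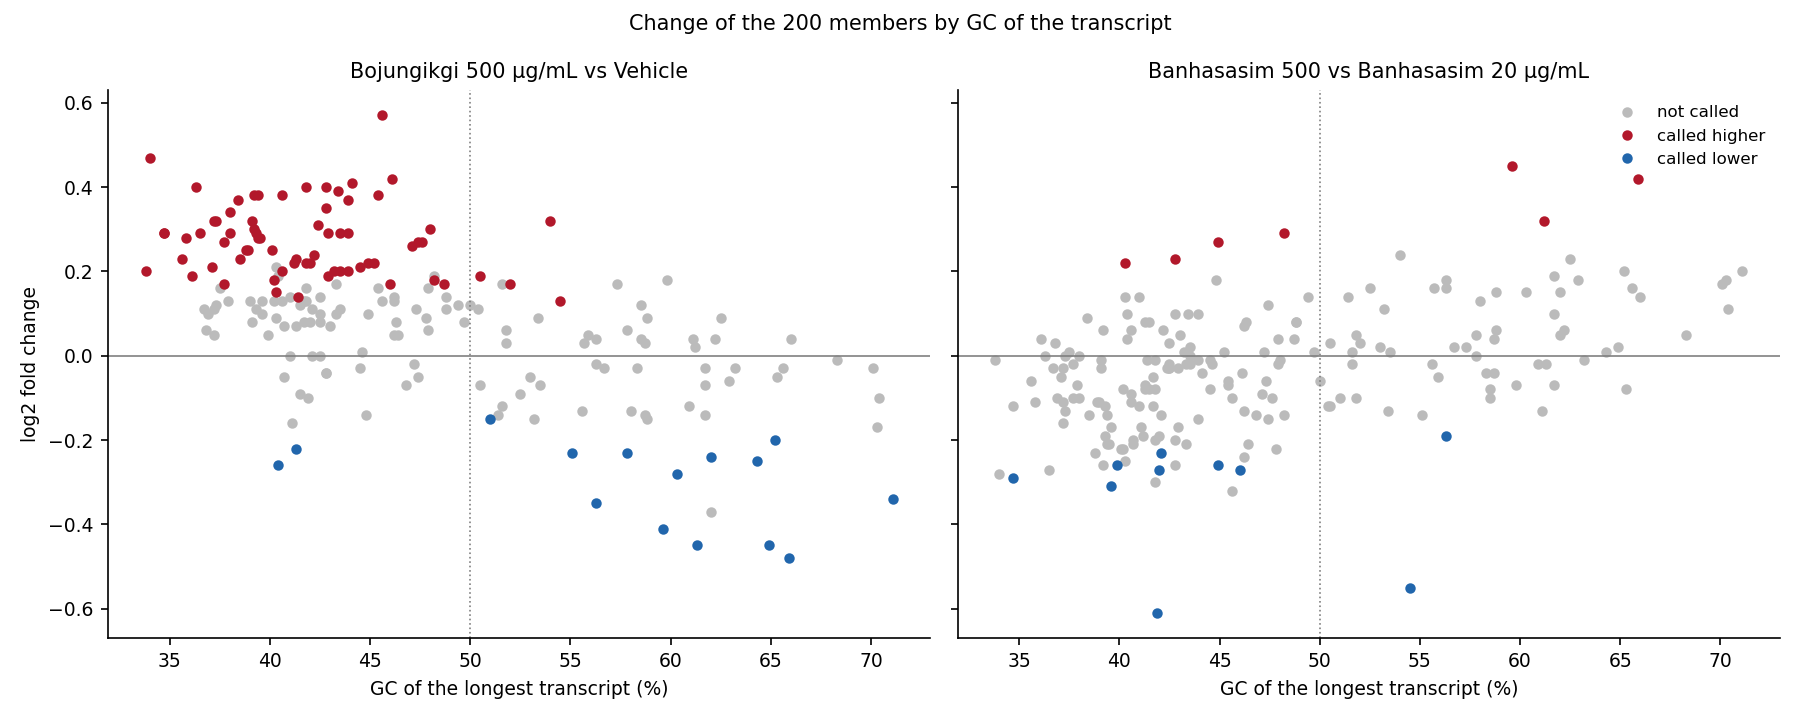
Log2 fold change (vertical axis) of each of the 200 members against the GC content of its longest transcript (horizontal axis, percent) for Bojungikgi at 500 µg/mL over vehicle (left) and Banhasasim at 500 over 20 µg/mL (right), with called members in colour. On the left 65 of the 69 called higher lie under 50% GC, and on the right ZNF704 and ZNF488 are the lowest points.

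A few members were called in every comparison with the vehicle. ZNF267, ZNF334, ZNF367, ZNF37A, ZNF572 and ZNF621 were higher in all 5, and ZNF212, ZNF26 and ZNF428 lower in all 5. Without Vehicle replicate 1 this was so for ZNF267, ZNF334 and ZNF367 among the higher and ZNF26 among the lower, and with only the groups compared for ZNF367 alone. ZNF367, a nuclear factor first described at erythroid globin genes, had 42.4 and 42.9 normalised CPM with Banhasasim, 43.4, 42.7 and 45.6 with Bojungikgi and 41.4, 41.9 and 40.6 with Sayeok at 500 µg/mL, against 32.8, 35.0 and 34.2 in the vehicle. Every extract library was above every vehicle library. The changes were 0.32 ± 0.05, 0.37 ± 0.04 and 0.28 ± 0.04, with adjusted p of 3.01e-05, 4.27e-06 and 0.000114 (edgeR quasi-likelihood test), and 0.27 at 100 and 0.21 at 20 µg/mL. All 5 calls held without each library in turn, and with counts corrected for GC content and length the changes at 500 µg/mL were 0.28, 0.30 and 0.23.

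ZNF334 had 10.6 and 10.1 normalised CPM with Banhasasim, 9.24, 10.6 and 10.4 with Bojungikgi and 9.49, 10.7 and 10.5 with Sayeok at 500 µg/mL, against 7.27, 8.02 and 8.91 in the vehicle. No extract library of these was below a vehicle library, and the changes were 0.36 ± 0.08, 0.32 ± 0.07 and 0.34 ± 0.07 (adjusted p 0.0036, 0.00254 and 0.00284, edgeR quasi-likelihood test). All 5 of its calls held without each library in turn, although the one for Bojungikgi at 500 µg/mL was lost with the GC and length correction (0.18, adjusted p = 0.0573), and those for Banhasasim and Bojungikgi at 500 µg/mL were lost with only the groups compared (adjusted p 0.111 and 0.0859, edgeR). ZNF428, of whose exon bases 27.6% overlap a gene on the other strand, had 25.2 and 23.0 with Banhasasim, 23.5, 18.5 and 25.3 with Bojungikgi and 24.9, 20.4 and 21.2 with Sayeok at 500 µg/mL, against 33.6, 30.5 and 28.4 in the vehicle. Its vehicle libraries all stood above, with changes of -0.35 ± 0.10, -0.45 ± 0.09 and -0.47 ± 0.09 (adjusted p 0.0168, 0.000664 and 0.000822, edgeR). The Banhasasim call was lost without Vehicle replicate 1 (-0.29, adjusted p = 0.0699) or Banhasasim 500 replicate 3 (adjusted p = 0.182), and those with Banhasasim and Bojungikgi were lost with only the groups compared (adjusted p 0.0796 and 0.075, edgeR).

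A list of 28 ZNF genes with a textbook role was drawn up, and 25 of them were among the 200. The list leaves out ZNF704, ZNF488, ZNF473 and ZNF277, which also have described roles and were called between doses, so its counts do not stand for all members with a role. None of the 25 listed was called between 500 and 20 µg/mL of any extract by edgeR or by DESeq2, with 4, 1 and 1 at an unadjusted p under 0.05 for Banhasasim, Bojungikgi and Sayeok. Against the vehicle, 9 of the 25 were higher and 2 lower with Bojungikgi at 500 µg/mL, where 14.3% and 15.4% of all genes were, 5 and 1 with Sayeok (8.33% and 8.27%), 1 and 0 with Banhasasim (8.16% and 7.12%), and 8 and 3 with the mean of the extracts at either 100 µg/mL (12.4% and 13.4%) or 20 µg/mL (13.7% and 15.2%). Without Vehicle replicate 1 these counts were 7 and 0 with Bojungikgi (7.09% and 7.94% of all genes), 1 and 0 with Sayeok (3.75% and 3.9%) and 1 and 0 with Banhasasim (6.23% and 5.5%). They were 4 and 0 at 100 µg/mL (3.49% and 3.57%) and 4 and 1 at 20 µg/mL (5.41% and 5.55%). With only the groups compared, none was called with Bojungikgi or Banhasasim at 500 µg/mL, where 11 and 3 had an unadjusted p under 0.05 (edgeR). Sayeok then had 3 higher and 0 lower, and the mean of the extracts 8 and 3 at 100 µg/mL and 8 and 5 at 20 µg/mL. The shares of all genes in these fits stand above, beside the counts of all 200 members. ZNF638, a large nuclear protein that helps silence unintegrated retroviral DNA, had 128, 151 and 126 normalised CPM with Bojungikgi at 500 µg/mL, against 93.6, 108 and 110 in the vehicle (0.38 ± 0.07, adjusted p = 0.000261, edgeR quasi-likelihood test). The lowest and the highest of these were Vehicle replicate 1 and Bojungikgi 500 replicate 2, the groups did not overlap, and the change was 0.31 without Vehicle replicate 1 (adjusted p = 0.00377, edgeR). ZNF644, a partner of the histone methyltransferases G9a and GLP, rose by 0.32 ± 0.06, ZNF24, a SCAN domain factor needed for myelination in mice, by 0.32 ± 0.06, and ZNF217, an oncogene product that works with the corepressor CtBP, by 0.29 ± 0.07 (adjusted p 0.000427, 0.00067 and 0.00324, edgeR). Without Vehicle replicate 1 the changes of ZNF644, ZNF24 and ZNF217 were 0.25, 0.25 and 0.21 and were still called. With the GC and length correction the 4 changes were 0.16 for ZNF638, 0.11 for ZNF644, 0.08 for ZNF24 and 0.16 for ZNF217, and that of ZNF24 was no longer called (adjusted p = 0.105, edgeR). All 4 calls were lost with only the groups compared, with an adjusted p of 0.0652 for ZNF638, 0.063 for ZNF644, 0.0732 for ZNF24 and 0.108 for ZNF217 (edgeR).

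Among the listed factors of ribosome assembly and surveillance, ZNF622 and ZNF593 were called lower than the vehicle only in means of the extracts, and ZNF598 was not called. ZNF622, which helps the large ribosomal subunit mature, was lower in the mean of the extracts at 20 µg/mL (-0.26 ± 0.05, adjusted p = 0.000589, edgeR quasi-likelihood test) and without Vehicle replicate 1 as well (-0.21, adjusted p = 0.0164), but with the GC and length correction its value was -0.10 (adjusted p = 0.201). Its libraries at 20 µg/mL ran from 20.1 to 22.7 normalised CPM, against 27.0, 24.1 and 24.8 in the vehicle, with no overlap. ZNF622 was not called at 500 µg/mL of any extract, and its call in the mean at 100 µg/mL was lost without Vehicle replicate 1 (-0.18, adjusted p = 0.052, edgeR). ZNF598, the ubiquitin ligase that senses collided ribosomes, was at -0.11 in the mean at 20 µg/mL (adjusted p = 0.149, edgeR). Of the listed members with other roles, ZNF703 was lower with Bojungikgi at 500 µg/mL (-0.20, adjusted p = 0.025) and with Sayeok (-0.21, adjusted p = 0.0329, edgeR). Both calls were lost without Vehicle replicate 1 (adjusted p 0.111 and 0.144, edgeR). The Bojungikgi call was also lost without Bojungikgi 500 replicate 1 (adjusted p = 0.113), and both were lost with only the groups compared (adjusted p 0.118 and 0.0527, edgeR). ZNF207 was not called in any comparison with the vehicle, with values of 0.00 to 0.10. With the GC and length correction its sign turned, to -0.20 in the mean of the extracts at 20 µg/mL (adjusted p = 0.031) and -0.18 at 100 µg/mL (adjusted p = 0.0468, edgeR). ZNF593, another factor of the large subunit, was called lower only in the mean at 100 µg/mL (-0.32, adjusted p = 0.0437), not without Vehicle replicate 1 (-0.16, adjusted p = 0.437) or with only the groups compared (adjusted p = 0.0548, edgeR), and its exons overlap a gene on the other strand. Of the 82 cytosolic ribosomal protein genes, 60 were lower with Bojungikgi at 500 µg/mL and none higher, where 15.4% of all genes were lower. Without Vehicle replicate 1, 23 were lower (7.94% of all genes), and without Bojungikgi 500 replicate 2, 30 were (8.27%). Without both libraries 12 were lower. With only the groups compared 0 were, in a fit that called 0.584% of all genes lower. The part of that shift in these values was not tested.

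ZNF417 showed the largest rise against the vehicle at 500 µg/mL. It had 17.2, 20.7 and 16.7 normalised CPM with Bojungikgi and 18.0, 16.6 and 16.7 with Sayeok at 500 µg/mL, against 9.68, 13.0 and 13.7 in the vehicle (0.57 ± 0.10 and 0.49 ± 0.10, adjusted p 0.000225 and 0.00169, edgeR quasi-likelihood test). The groups did not overlap, and without Vehicle replicate 1 the changes were 0.44 and 0.36. The Bojungikgi call was lost with only the groups compared (adjusted p = 0.0649, edgeR). ZNF417 is a KRAB gene that shares 24.1% of its 100-base stretches with ZNF587, so reads may have been split between them. ZNF841 had rises of 0.40 ± 0.07 and 0.37 ± 0.07 with the same extracts (adjusted p 0.000221 and 0.000954, edgeR), and both calls held without each library in turn and with the GC and length correction, whereas with only the groups compared the Bojungikgi call was lost (adjusted p = 0.0732, edgeR). ZNF320 and ZNF468 share 99.5% and 99.1% of their stretches with other genes, and in all 20 members shared more than 10%.

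The partners of the KRAB zinc fingers were taken from a list of 17 corepressor and heterochromatin genes, all of which were tested. None was called between 500 and 20 µg/mL of any extract by edgeR, with 4, 2 and 0 at an unadjusted p under 0.05 for Banhasasim, Bojungikgi and Sayeok, and DESeq2 called 1 with Banhasasim. With Bojungikgi at 500 µg/mL, 7 were higher than in the vehicle and 2 lower, where 14.3% and 15.4% of all genes were. Without Vehicle replicate 1, where 7.09% of all genes were higher and 7.94% lower, 2 were higher and 0 lower. The 2 were ATF7IP, the partner of SETDB1 (0.28, adjusted p = 0.0112), and the heterochromatin protein gene CBX5 (0.20, adjusted p = 0.0309, edgeR quasi-likelihood test). With only the groups compared none was called with Bojungikgi, 6 having an unadjusted p under 0.05 (edgeR). The mean of the extracts in that setting had 4 higher and 3 lower at 100 µg/mL, and 6 and 3 at 20 µg/mL. The shares of all genes in these fits stand above, beside the counts of the members. TRIM28 was at -0.19 with Bojungikgi at 500 µg/mL (adjusted p = 0.0228) and the heterochromatin protein gene CBX3 at -0.19 (adjusted p = 0.0139), and without Vehicle replicate 1 these values were -0.12 (adjusted p = 0.184) and -0.13 (adjusted p = 0.126, edgeR). SETDB1 itself was at 0.05 (adjusted p = 0.483). In the mean of the extracts at 20 µg/mL 5 of the list were higher and 3 lower, where 13.7% and 15.2% of all genes were. Without Vehicle replicate 1 there were 1 higher, ATF7IP, and 1 lower, TRIM28, where 5.41% and 5.55% of all genes were. The value of TRIM28 there was -0.26 ± 0.05 (adjusted p = 0.000724) with all libraries and -0.19 (adjusted p = 0.026, edgeR) without that one. With Banhasasim at 500 µg/mL 2 were higher and 0 lower, where 8.16% and 7.12% of all genes were, and with Sayeok 1 and 1, where 8.33% and 8.27% were. With either extract none was called without Vehicle replicate 1, where 3 and 1 had an unadjusted p under 0.05 (edgeR). All genes then had 6.23% higher and 5.5% lower with Banhasasim, and 3.75% and 3.9% with Sayeok.

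Other C2H2 families were counted in the same fit. With Bojungikgi at 500 µg/mL, where 14.3% of all genes were higher and 15.4% lower, 15 of 39 ZBTB genes were higher and 2 lower than in the vehicle, 4 and 0 of 21 ZSCAN and ZKSCAN genes, 4 and 1 of 10 ZFP genes, and 22 and 9 of the 215 tested ZNF genes under 10 CPM. These counts were, without Vehicle replicate 1, where 7.09% and 7.94% of all genes were called, 6 and 0, 2 and 0, 2 and 0, and 11 and 6 of 216. With Banhasasim at 500 µg/mL, 9 of the 39 ZBTB genes were higher and 0 lower, where 8.16% and 7.12% of all genes were. Without Vehicle replicate 1 these were 6 and 1, where 6.23% and 5.5% of all genes were. With Bojungikgi, 25 of the 68 members on chromosome 19 were higher and 7 lower, against 44 of 132 higher and 8 lower elsewhere, and without Vehicle replicate 1 these were 9 and 5, against 22 and 4. No test of these differences between groups of genes was made.

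Yijung had 1 library per dose, so that its values have no replicate check and no test. The ratio of 500 to 20 µg/mL was above 1 for 97 members and below 1 for 103, on log2 of CPM plus 0.05, and no member passed 0.5 on that scale either way. The lowest were ZNF419 (-0.29), ZNF185 (-0.27) and ZNF704 (-0.26), and the highest were ZNF488 (0.20), ZNF417 (0.19) and ZNF551 (0.19). ZNF704 had 13.3 CPM at 500 µg/mL, with a 95% exact Poisson interval of 12.3 to 14.3 that covers counting error only, and 15.9 CPM at 20 µg/mL, with an interval of 14.8 to 17.1. The 2 intervals did not overlap. ZNF488 had 26.2 CPM (24.8 to 27.7) at 500 µg/mL and 22.8 CPM (21.5 to 24.1) at 20 µg/mL.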

How the data were processed

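The deposited table holds expected counts per Ensembl gene ID, which the authors made from the reads. Per the submitters' processing notes the tools named are FastQC 0.11.9, RSEM 1.3.3, STAR 2.7.3a and Trim Galore 0.6.5, with the build GRCh38. The sources used here do not give the annotation release or whether counting used strand. Of its 270 columns, the 30 that the labels name were used and 240 were not. Of the values 25.48% were not whole, and all were rounded to whole counts, moving none by more than 0.5. Symbols were found for 93.21% of the IDs. Biotypes, positions, and the GC content and length of the longest transcript came from GENCODE 29.

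The edgeR quasi-likelihood test (edgeR 4.0.16, limma 3.58.1, R 4.3.3) was fitted with 1 mean per group to all 30 libraries, after trimmed mean of M-values scaling and a filter at a count minimum of 10, on 18783 genes with 17 residual degrees of freedom. The biological coefficient of variation was 6.38%. P-values were adjusted over all genes tested at a threshold of 0.05. The test was checked on simulated counts. Alternatives were DESeq2 1.42.0, other scalings, no expression filter, only the groups compared, a replicate block and each library left out. A GC and length correction, and 2 joint omissions, were added after the data were seen.

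The members, the gene lists and the tests were chosen with earlier results of these data known. Named were the most abundant members, those nearest the limit, up to 6 in each direction per comparison by size of change among those called (the smallest p where none were), and members with a listed role. ZNF3 as the steadiest member, the members called in every vehicle comparison, those that share the most sequence, ZNF580, and ZNF639, ZNF587, ZNF432, ZNF440 and ZNF263 among the dose calls were named after their values were seen. Replicates of a group differed beyond counting noise in all 24 pairs, and none were merged.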

Additional observations from a re-analysis of the deposited data

Results flagged for a closer look

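The results set apart here are those where the change from 20 to 500 µg/mL differed between extracts by a test of the difference itself (edgeR interaction contrast). ZNF488 fell with Banhasasim but not with the other extracts, by -0.59 ± 0.08 relative to the change with Sayeok (adjusted p = 2.12e-05) and by -0.69 ± 0.08 relative to that with Bojungikgi (adjusted p = 1.51e-06). Both libraries of Banhasasim at 500 µg/mL were below all the other 28 libraries. ZNF579 had a dose change 0.52 ± 0.12 higher with Banhasasim than with Bojungikgi (adjusted p = 0.0161), and ZNF277 one 0.44 ± 0.09 higher (adjusted p = 0.00786). The 2 calls on ZNF579 and ZNF277 were each lost without Banhasasim 20 replicate 2 or Banhasasim 500 replicate 3, and that on ZNF579 without Banhasasim 20 replicate 3 as well. Both were also lost with only the groups compared (adjusted p 0.0526 for ZNF579 and 0.056 for ZNF277, edgeR), where those on ZNF488 were kept (adjusted p 0.00054 and 0.000972). Banhasasim had 2 libraries per dose.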

How the results depend on the processing

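The counts of called members moved with the choice of libraries, of scaling and of the groups fitted, and no named call changed sign under any alternative. Under the alternatives other than single omissions, 818 values of named members kept their side of the threshold and 130 lost their call. Under omission of 1 library these were 658 and 124. With column totals alone, 55 members were called between 500 and 20 µg/mL of Banhasasim, 1 for Bojungikgi, 1 for Sayeok, 35 for Banhasasim against Sayeok, 85 for Banhasasim against Bojungikgi, 3 for the difference Banhasasim minus Sayeok and 10 for Banhasasim minus Bojungikgi. With only the groups compared, these were 8 for the Banhasasim doses, 0 for the Bojungikgi doses, 4, 2 and 14 for Banhasasim, Bojungikgi and Sayeok at 500 µg/mL against the vehicle, 5 against Sayeok, 1 against Bojungikgi and 1 for Banhasasim minus Bojungikgi. With no expression filter, 1 was called for the Sayeok doses, 13 for Banhasasim against Sayeok and 8 for Banhasasim minus Bojungikgi, for which DESeq2 called 5. With the GC and length correction, 5 were called for the Bojungikgi doses, 4 for the Sayeok doses, 42, 32, 45 and 45 for Bojungikgi, Sayeok and the means at 100 and 20 µg/mL against the vehicle, 20 for Banhasasim against Sayeok, 2 for Banhasasim minus Sayeok and 7 for Banhasasim minus Bojungikgi. Leaving out Vehicle replicate 1 as well gave 22, 10, 10 and 11 for the same 4 vehicle comparisons. Without Vehicle replicate 1 and Bojungikgi 500 replicate 2, 1 was called for the Bojungikgi doses, and 20, 28, 32 and 43 against the vehicle for Bojungikgi, Sayeok and the means at 100 and 20 µg/mL. The shares of all genes are not set beside these counts, so the counts do not show whether members moved more than other genes. The cause of these moves was not tested.

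With single libraries left out, the calls ranged over 5 to 15 for the Banhasasim doses, 0 to 1 for the Bojungikgi doses and 1 to 2 for the Sayeok doses. Against the vehicle they ranged over 10 to 32 for Banhasasim, 40 to 102 for Bojungikgi, 15 to 68 for Sayeok, 16 to 92 for the mean at 100 and 31 to 101 for the mean at 20 µg/mL. They ranged over 2 to 10 for Banhasasim against Sayeok, 4 to 35 against Bojungikgi, 1 to 2 for Banhasasim minus Sayeok and 1 to 4 for Banhasasim minus Bojungikgi, and stayed at 0 for the other comparisons. The shares of all genes are not set beside these ranges. Samples with the same replicate number did not deviate together (r of -0.16 to 0.195 in 12 comparisons). A replicate block gave 15 calls for Banhasasim against Sayeok, and every other count was within 1.5 times that without the block. Banhasasim had 2 libraries per dose, which limits what its comparisons can show.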
